A study of Mus musculus with 12 samples.

Results

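Osteocytes sense mechanical load through ion channels in the plasma membrane and through ATP that is released and acts on purinergic receptors. Here 10 such genes, Piezo1, Piezo2, Trpv4, Trpv2, Trpm7, Panx1, P2rx4, P2rx7, P2ry2 and Cacna1c, were taken by Ensembl mouse gene ID from the 37583 gene IDs counted in the series. All 10 were found in all 12 libraries. RNA-seq had been carried out on Ocy454 cells, an osteocytic line from mouse long bone, with 3 libraries in each of 4 groups. The control cells were labelled as original cells, and the DKO cells as cells with deletion of HDAC4 and HDAC5, class IIa histone deacetylases that repress transcription. Both were kept static (STATIC) or sheared by fluid flow (FFSS, fluid flow shear stress) for 3 h, and all groups shared the temperature-sensitive T antigen of the line. Per the study's methods the cells came from a single-cell sub-clone and FFSS was applied by orbital agitation. Every control library came from one line and every DKO library from another, which leaves genotype and line confounded: they cannot be told apart.

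PIEZO1 and PIEZO2 are large trimeric cation channels that open when the membrane is stretched. TRPV4, TRPV2 and TRPM7 are calcium-permeable TRP channels, of which TRPV4 also answers to cell swelling and TRPM7 carries a kinase domain, and Cacna1c encodes the pore of the L-type calcium channel. In bone cells under flow, calcium entry is followed by ATP release, for which pannexin 1 (Panx1) forms one pore. Released ATP then opens the P2X channels P2X4 and P2X7 or activates the G protein-coupled receptor P2Y2.

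Libraries held 17.6 to 19.2 M reads assigned to genes, and 3 counts, taken as the floor, equalled 0.146 to 0.178 CPM (counts scaled to the TMM-adjusted library total). The labels do not say whether replicates were separate cultures, so p-values measure only the spread between these libraries. Control FFSS replicate 1 stood apart from the others of its group. The chi-square per degree of freedom of its counts against theirs was 63.8 and 58.0. For all other replicate pairs it was between 2.02 and 6.45. Calls that this library makes or ends are therefore given with and without it for the 10 members, and for other genes only where stated. The labels give it the same treatment as replicates 2 and 3, and whether it was sheared as they were was not tested. The share of reads outside annotated genes was 5.10% to 5.21% in control static, 5.87%, 9.19% and 10.04% in control FFSS replicates 1, 2 and 3, 7.07% to 7.14% in static DKO libraries and 7.93% to 8.55% in sheared DKO libraries. This share was higher in every FFSS library than in every static library of its line. It was also higher in every DKO static than in every control static library. As a covariate it therefore takes up part of any difference with FFSS or between the static lines. A call lost or gained in the fit with this covariate cannot decide whether such a difference was present. The targeted genes were lower in DKO than in control static libraries. Hdac4 (the longer of its gene IDs) had 220 to 309 against 458 to 550 counts, and Hdac5 had 1461 to 1634 against 2421 to 2706. Under FFSS the Hdac5 counts of the genotypes overlapped (1553 to 1687 in DKO, 1457 to 1755 in control).

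The osteocytic label was examined with 15 osteocyte and osteoblast markers, of which 13 reached 1 CPM in every control static library (all but Fgf23 and Mepe) and 13 in every DKO static library (all but Fgf23 and Fap). Their summed level was 20541 to 24598 CPM in control static, 7498 to 21288 in control FFSS and 66203 to 73165 in DKO static libraries. Col1a1 alone made up most of these sums. It was at 14907 to 18274 CPM in control static, 5284 to 14913 in control FFSS and 47300 to 54760 in DKO static libraries. The osteocyte genes Dmp1 and Sost averaged 29.4 and 5.35 CPM in control static but 582.4 and 2063 CPM in DKO static cells, while Pdpn, an early osteocyte gene, fell from 28.4 to 5.11 CPM and Fap from 3.12 to 0.827 CPM. Of the 14 markers tested, 8 were higher and 2 lower in DKO static cells (adjusted p under 0.05 by edgeR). Fgf23 was at or near 0 in all 4 groups, and Mepe averaged 0.123 CPM in control static cells. Of 10 chondrocyte markers, 5 reached 1 CPM in control static and 10 in DKO static libraries, and their sum was 152 to 180 against 2448 to 3045 CPM. Col2a1 and Col10a1 averaged 1819 and 602 CPM in DKO static cells and made up most of that sum. Hapln1 and Acan averaged lower there, at 11.4 and 4.97 CPM against 35.4 and 5.96 CPM in control static cells. Of the 9 chondrocyte markers tested, 5 were higher and 1 lower in DKO static cells (adjusted p under 0.05 by edgeR). Of the 9 macrophage and osteoclast markers matched, only Ctsk and Cd68 reached 1 CPM in all 3 libraries of a group, which they did in all 4 groups, and Ptprc, Csf1r, Emr1 and Itgam were below 1 CPM on average in every group. Of 7 endothelial markers Vwf alone, and of 8 neuronal markers Tubb3 alone, reached 1 CPM, and Nefl had no count. The expressed macrophage, osteoclast, endothelial and neuronal markers averaged lower in DKO static than in control static cells. Tubb3 was at 8.86 against 111 CPM, Vwf at 4.54 against 27.9, Cd68 at 2.32 against 25.5 and Ctsk at 56.2 against 76.7 CPM. The part of these differences in the results below was not tested, and in bulk RNA fewer cells of a type and less RNA per cell cannot be told apart.

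Promoter sequences of the members are given first because the results turn on genes that differed between the lines or under FFSS. Of the 10 genes, 9 had at least 1 promoter window in RefSeq (GRCm38.p6), and Piezo2 is named only. Shown are the 250 bases before the annotated start of Panx1 (chr9:15045479-15045728, minus strand) and P2ry2 (chr7:101012054-101012303, minus strand, first of its windows), both lower in DKO cells, of P2rx7 (chr5:122643677-122643926, plus strand, first of its windows), higher under FFSS, and of Piezo1 (chr8:122551330-122551579, minus strand), the most abundant per length. Each reads 5′ to 3′ on the strand of the gene, and capitals mark every match on either strand to the letters GGGCGG or TGANTCA, which do not overlap here.
Panx1: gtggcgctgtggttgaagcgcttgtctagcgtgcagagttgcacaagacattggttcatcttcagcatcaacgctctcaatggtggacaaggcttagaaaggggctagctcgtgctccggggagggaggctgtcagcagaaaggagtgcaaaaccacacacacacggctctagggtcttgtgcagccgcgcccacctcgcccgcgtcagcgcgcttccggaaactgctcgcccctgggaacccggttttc
P2ry2: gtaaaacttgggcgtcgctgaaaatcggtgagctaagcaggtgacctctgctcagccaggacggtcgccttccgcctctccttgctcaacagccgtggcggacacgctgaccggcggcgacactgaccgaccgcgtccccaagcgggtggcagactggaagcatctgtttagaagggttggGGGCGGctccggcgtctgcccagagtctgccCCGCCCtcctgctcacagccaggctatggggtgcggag
P2rx7: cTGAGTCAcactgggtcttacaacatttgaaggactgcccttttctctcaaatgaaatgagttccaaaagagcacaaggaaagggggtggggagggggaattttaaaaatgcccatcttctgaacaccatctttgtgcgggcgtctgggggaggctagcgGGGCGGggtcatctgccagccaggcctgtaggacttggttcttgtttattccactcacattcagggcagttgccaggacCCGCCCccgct
Piezo1: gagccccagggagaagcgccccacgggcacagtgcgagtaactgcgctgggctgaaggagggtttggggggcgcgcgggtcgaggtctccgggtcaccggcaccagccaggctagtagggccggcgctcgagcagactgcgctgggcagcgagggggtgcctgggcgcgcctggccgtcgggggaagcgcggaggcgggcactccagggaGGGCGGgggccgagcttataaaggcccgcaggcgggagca
P2rx7 held 1 match to TGANTCA, the letters of an AP-1 site, starting 249 bases before the start, and 2 to GGGCGG, at 90 and 11 bases before it. P2ry2 held GGGCGG at 69 and 38 bases and Piezo1 at 40 bases before the start, and Panx1 held neither. TGANTCA was present in 6.75% and GGGCGG in 32.7% of all 32851 promoter windows of this length. The MEF2 box and the CArG box, found in 1.69% and 1.47% of all windows, had no match in these 4 windows or in the other windows of the members. The GC content was 59.6% for Panx1, 65.2% for P2ry2, 53.6% for P2rx7 and 74% for Piezo1. These matches describe letters and not binding.

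To determine which sensors the cells express, the level of each gene was first compared per length, as CPM per kb of exon. A gene was taken as expressed in a group when all 3 libraries held at least 1 CPM. By this rule 10 of 10 genes were expressed in control static and control FFSS cells, and 9 of 10, all but Piezo2, in both DKO groups. Piezo1 was the most abundant in control static cells, at 31.4 ± 0.451 CPM per kb (SD, n = 3), which was at percentile 90.8 of all genes with a count. P2rx4 followed at 22.1 ± 1.46 and Trpm7 at 19.9 ± 0.671 CPM per kb. These 3 genes stood above Trpv4 (8.54 ± 0.318), P2rx7 (6.20 ± 0.056) and Panx1 (5.04 ± 0.130). The lowest were Trpv2 (1.88 ± 0.039), P2ry2 (1.09 ± 0.120), Piezo2 (0.642 ± 0.077) and Cacna1c (0.531 ± 0.078 CPM per kb).

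In control static cells the libraries of neighbours in this order did not overlap, except for Piezo2 and Cacna1c. With the length of the longest transcript in place of all exons, P2rx4 fell behind Trpm7, so the order of these neighbours depends on the length used. Piezo1 (listed as Fam38a in the mm9 annotation) shares 2441 exon bases, 24.6% of its length, with Ctu2 on the opposite strand. Reads in a shared stretch were not counted, and over its unshared exons alone Piezo1 averaged 41.6 CPM per kb. In both DKO groups the order was Piezo1, Trpm7, P2rx4, Trpv4, P2rx7, Panx1, Trpv2, Cacna1c, P2ry2 and Piezo2, with no overlap between neighbours. In control FFSS cells P2rx7 (8.81 ± 1.05 CPM per kb) averaged above Trpv4 (6.41 ± 3.27), and P2ry2 (1.78 ± 0.592) above Trpv2 (1.57 ± 0.172), but the libraries of each pair overlapped.

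**Figure D1:**
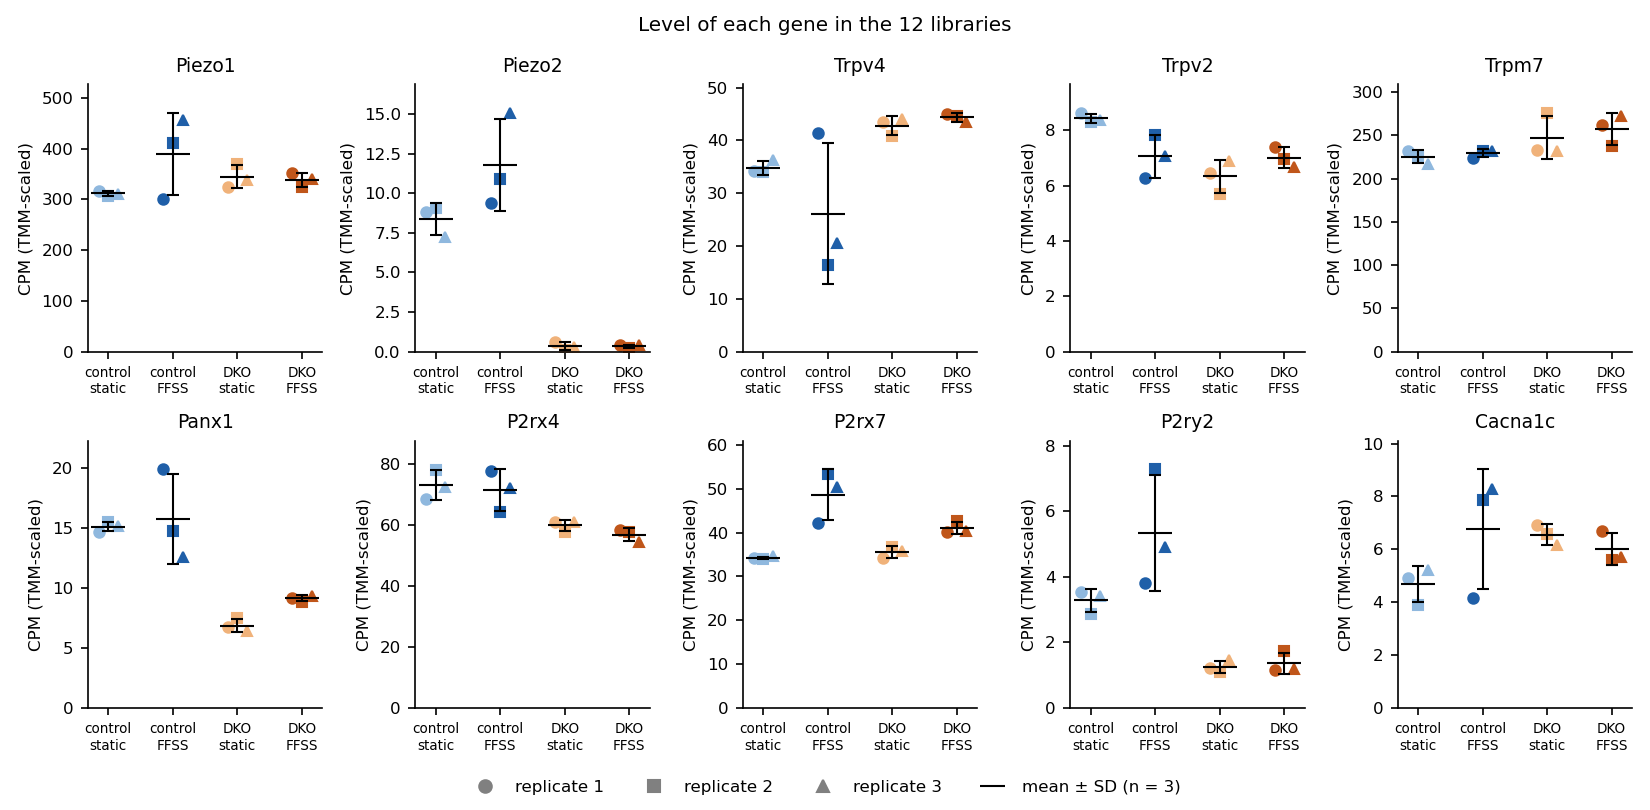
TMM-scaled CPM (y axis, from 0) of each of the 10 genes in the 12 libraries, grouped on the x axis by genotype and treatment. Symbols are replicates and bars are mean ± SD of 3. Piezo2 lies between 7.21 and 15.1 CPM in the control libraries and at or below 0.605 CPM in the DKO libraries, and control FFSS replicate 1 is apart from replicates 2 and 3 for Piezo1, Trpv4 and Cacna1c.

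**Figure D2:**
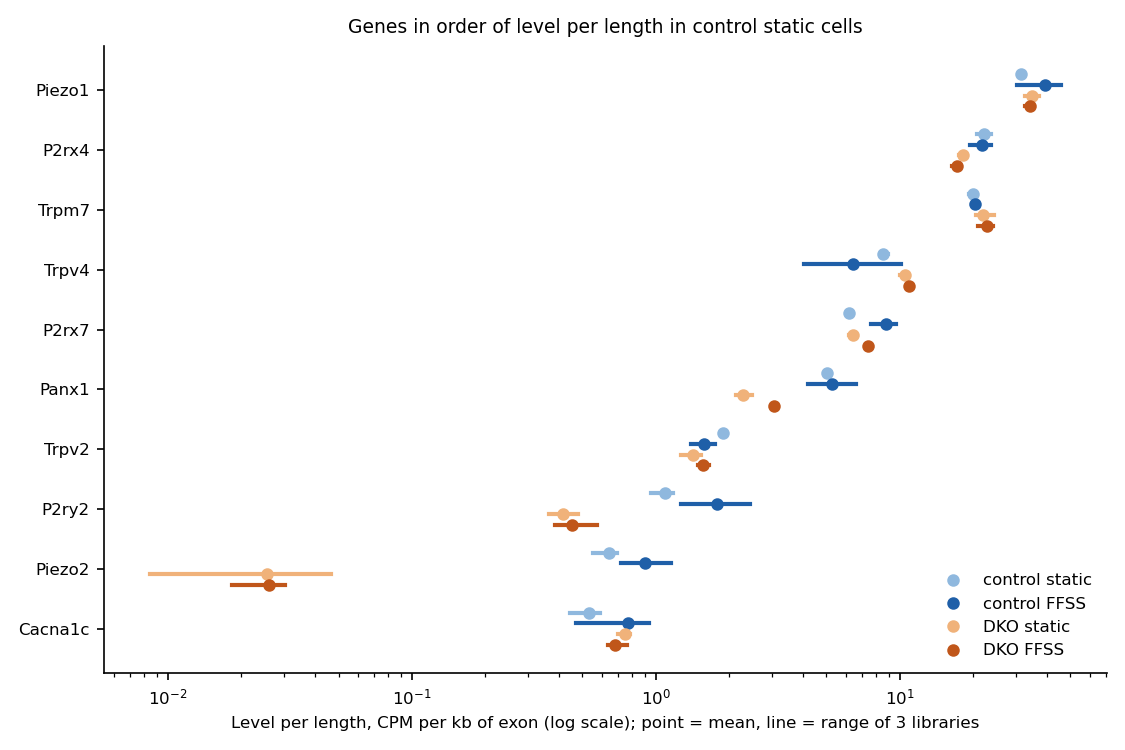
Level per length (x axis, CPM per kb of exon, log scale) of the 10 genes in the 4 groups, ordered by control static cells. Points are means and lines the range of 3 libraries. Piezo1 is highest in every group, and Piezo2 is the only gene that moves to the bottom in the DKO groups.

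The first comparison asked how the DKO line differs from the control line in static culture. Piezo2, P2ry2, Panx1, Trpv2 and P2rx4 were lower in DKO cells, so 5 of 10 genes fell and 0 rose with an adjusted p under 0.05 by edgeR. Over all 14904 genes tested, 54.2% passed this test, 27% higher and 27.2% lower. With more than a 2-fold change as well, 3 of 10 genes (Piezo2, P2ry2 and Panx1) were called, against 15.3% of all genes. Their median log2 fold change was −0.12, beside 0.01 for all genes.

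Among the channels of the 10 genes, Piezo2 (listed as Fam38b, ENSMUSG00000041482, mm9 chr18:63169867-63546837, minus strand) differed most. Its counts were 167, 174 and 137 in control static libraries 1, 2 and 3 but only 11, 2 and 5 in DKO static libraries. Every DKO library was therefore far below every control library, and DKO replicate 2 was under the floor of 3 counts. The log2 fold change was −4.63 (SE 0.33, adjusted p = 4.65e-08 by edgeR). The summed counts were 478 in control and 18 in DKO libraries. Scaled to the TMM-adjusted library totals, their ratio was 25.3, with an exact 95% interval for counting error of 15.8 to 43.1.

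Trpv2 (ENSMUSG00000018507, chr11:62387988-62414017, plus strand), a TRP channel opened by heat and stretch, was at 8.62, 8.28 and 8.37 CPM in control static and 6.43, 5.71 and 6.89 CPM in DKO static libraries. The groups did not overlap, and the level fell 1.33-fold (log2 fold change −0.41, SE 0.12, adjusted p = 0.00798 by edgeR). Piezo1 (ENSMUSG00000014444, chr8:125005598-125075229, minus strand) was at 316, 307 and 311 CPM in control static and 325, 369 and 339 CPM in DKO static libraries, and the difference of 0.14 on the log2 scale (SE 0.12) did not pass (adjusted p = 0.316 by edgeR). Trpv4 (ENSMUSG00000014158, chr5:115072161-115108430, minus strand) averaged 34.8 ± 1.30 CPM in static control cells and 42.8 ± 1.78 CPM in static DKO cells. Its libraries did not overlap, yet the log2 fold change of 0.30 (SE 0.26) did not pass over the spread shared by all 12 libraries (adjusted p = 0.367 by edgeR). Without control FFSS replicate 1, which widens that shared spread, Trpv4 passed in this comparison (log2 fold change 0.30, adjusted p = 0.000313 by edgeR), as did Piezo1 (0.14, adjusted p = 0.0121) and Trpm7 (0.13, adjusted p = 0.0467). Trpm7 (ENSMUSG00000027365, chr2:126617301-126701966, minus strand) averaged 225 ± 7.59 CPM in static control cells and 247 ± 24.8 CPM in static DKO cells, and its libraries overlapped.

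Panx1 (ENSMUSG00000031934, chr9:14809605-14849922, minus strand), the ATP-release pore among the members, was at 14.7, 15.5 and 15.2 CPM in control static libraries. In DKO static libraries it was at 6.71, 7.46 and 6.39 CPM, below all control libraries. This was a 2.20-fold lower level (log2 fold change −1.14, SE 0.14, adjusted p = 1.25e-05 by edgeR).

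Of the 3 nucleotide receptors among the 10 genes, P2ry2 (ENSMUSG00000032860, chr7:108145086-108160505, minus strand) differed most. It had 67, 55 and 65 counts in control static libraries and 22, 20 and 26 counts in DKO static libraries, with no overlap. The level was 2.61-fold lower (log2 fold change −1.38, SE 0.27, adjusted p = 0.00054 by edgeR). P2rx4 (ENSMUSG00000029470, chr5:123157593-123179747, plus strand) was at 68.7, 78.3 and 72.5 CPM in static control libraries and 61.2, 57.8 and 60.9 CPM in static DKO libraries. Its groups were also apart, and the level fell 1.22-fold (log2 fold change −0.29, SE 0.07, adjusted p = 0.00443 by edgeR). P2rx7 (ENSMUSG00000029468, chr5:123093920-123141441, plus strand), which lies beside P2rx4 on chromosome 5, averaged 34.2 ± 0.309 CPM in static control cells and 35.6 ± 1.32 CPM in static DKO cells. Its log2 fold change was 0.06 (SE 0.08, adjusted p = 0.58 by edgeR) and the libraries overlapped.

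Cacna1c (ENSMUSG00000051331, chr6:118542314-119146249, minus strand), the L-type channel pore, was at 4.92, 3.91 and 5.21 CPM in static control libraries and 6.93, 6.59 and 6.17 CPM in static DKO libraries. The DKO libraries were all higher, but the log2 fold change of 0.49 (SE 0.21) did not pass (adjusted p = 0.0688 by edgeR). Without control FFSS replicate 1 it passed (log2 fold change 0.49, adjusted p = 0.00178 by edgeR), and 9 of 10 genes then did, beside 63.8% of all genes in that fit. With the share of reads outside genes as a covariate, Cacna1c was instead at 0.03 (adjusted p = 0.896 by edgeR) and Trpv4 at 0.85 (adjusted p = 2.71e-06). The 5 calls of this comparison held in all 20 alternative analyses.

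Next, the same lines were compared under FFSS. Piezo2, P2ry2, Panx1 and P2rx4 were again lower in DKO cells, together with P2rx7, and Trpv4 was higher. With an adjusted p under 0.05 by edgeR, 5 of 10 genes were lower and 1 was higher, while 56.6% of all genes passed, 29.6% lower and 27% higher. With more than a 2-fold change, 2 of 10 genes were called against 17.2% of all genes. The median log2 fold change was −0.22 for the 10 genes and −0.05 for all genes.

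Piezo2 had 183, 223 and 304 counts in control FFSS and 7, 4 and 7 counts in DKO FFSS libraries. The groups were far apart, with a log2 fold change of −5.08 (SE 0.32, adjusted p = 1.48e-08 by edgeR). The ratio of summed counts, scaled to the TMM-adjusted library totals, was 34.6 (exact 95% counting interval 21.7 to 58.7). P2ry2 had 74, 149 and 99 counts in control and 21, 29 and 21 counts in DKO FFSS libraries, a 3.94-fold lower level (log2 fold change −1.98, SE 0.25, adjusted p = 1.37e-05 by edgeR). Both genes, low in DKO static cells, were therefore low in DKO FFSS cells as well.

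Panx1 was at 19.9, 14.7 and 12.6 CPM in control and 9.18, 8.86 and 9.34 CPM in DKO FFSS libraries. Every DKO library was below every control library, by 1.72-fold in the fit (log2 fold change −0.78, SE 0.14, adjusted p = 0.000267 by edgeR; −0.58 without control FFSS replicate 1). P2rx4 was at 77.9, 64.5 and 72.4 CPM in control and 58.3, 57.8 and 54.4 CPM in DKO FFSS libraries (log2 fold change −0.33, SE 0.07, adjusted p = 0.00158 by edgeR). These 4 calls (Piezo2, P2ry2, Panx1 and P2rx4) held in all 20 alternatives.

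The other calls depended more on the analysis. P2rx7 was at 42.2, 53.4 and 50.4 CPM in control and 40.2, 42.6 and 40.3 CPM in DKO FFSS libraries, so the groups overlapped. Its log2 fold change was −0.25 (SE 0.08, adjusted p = 0.0166 by edgeR; −0.34 and adjusted p = 2.9e-05 without control FFSS replicate 1) and passed in 15 of 20 alternatives. Trpv4 was at 41.3, 16.5 and 20.6 CPM in control FFSS libraries 1, 2 and 3 and between 43.5 and 45.0 CPM in DKO FFSS libraries. The groups were apart, but control replicate 1 was close to the DKO libraries. The log2 fold change was 0.77 (SE 0.26, adjusted p = 0.0303 by edgeR; 1.26 and adjusted p = 5.98e-14 without control FFSS replicate 1) and passed in 13 of 20 alternatives. Trpv2, Trpm7, Piezo1 and Cacna1c did not pass, with log2 fold changes of −0.01, 0.17, −0.20 and −0.18 (adjusted p by edgeR from 0.0615 to 0.95). Without control FFSS replicate 1, Piezo1 (log2 fold change −0.36, adjusted p = 1.34e-06 by edgeR), Cacna1c (−0.43, adjusted p = 0.00624) and Trpm7 (0.15, adjusted p = 0.0469) passed.

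**Figure D3:**
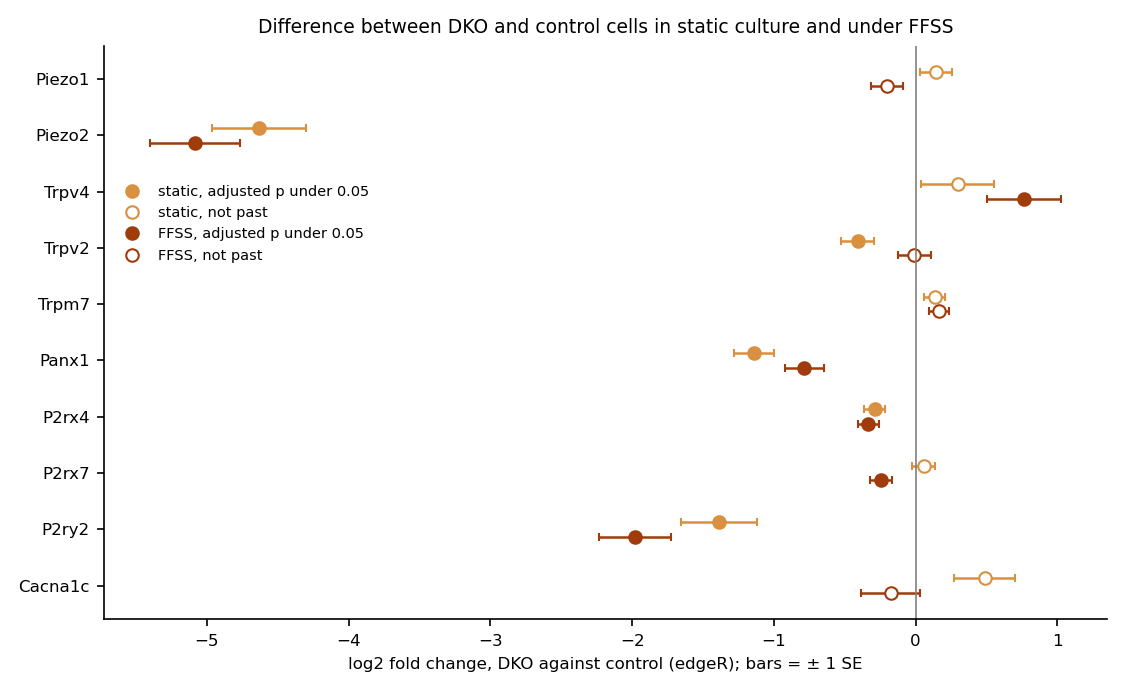
Log2 fold change between DKO and control cells (x axis, edgeR, bars ± 1 SE) for each of the 10 genes, in static culture and under FFSS. Filled points passed an adjusted p under 0.05. Piezo2 lies at −4.63 and −5.08, P2ry2 at −1.38 and −1.98, Panx1 at −1.14 and −0.78, and the other genes between −0.41 and 0.77.

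To examine whether the sensors change when the control cells are sheared, FFSS and static libraries of that line were set against each other. P2rx7, P2ry2 and Piezo1 were higher with an adjusted p under 0.05 by edgeR, so 3 of 10 genes rose and 0 fell, and 0 of 10 changed more than 2-fold. Over all genes 35.8% passed, 17.7% higher and 18.1% lower, and 5.93% also changed more than 2-fold. The median log2 fold change was 0.19 for the 10 genes and 0.01 for all genes. This comparison uses the same control FFSS libraries as the comparison between lines under FFSS, so their values are not independent.

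P2rx7, the ATP-gated channel with the lowest affinity for ATP of its family, was at 34.1, 34.0 and 34.6 CPM in control static libraries. In control FFSS libraries 1, 2 and 3 it was at 42.2, 53.4 and 50.4 CPM, above every static library. The log2 fold change was 0.51, or 1.42-fold (SE 0.08, adjusted p = 0.000464 by edgeR), and 0.60 without replicate 1 (adjusted p = 4.99e-09). It passed in 19 of 20 alternatives. The exception was the fit with each library's share of reads outside genes as a covariate, in which the log2 fold change was 0.27 (adjusted p = 0.0582 by edgeR). That share separated the FFSS from the static libraries of this line, so this fit cannot decide whether the rise was present.

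P2ry2, the receptor for ATP and UTP, rose from 3.54, 2.87 and 3.42 CPM to 3.80, 7.28 and 4.90 CPM. The groups did not overlap, although FFSS replicate 1 was only just above the highest static library. The log2 fold change was 0.70, or 1.63-fold (SE 0.22, adjusted p = 0.0248 by edgeR), and 0.89 without replicate 1 (adjusted p = 9.3e-05). Without replicate 2 it was 0.41 and did not pass (adjusted p = 0.137 by edgeR), with the covariate it was 0.23, and it passed in 14 of 20 alternatives.

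Piezo1 was at 300, 411 and 457 CPM in control FFSS libraries 1, 2 and 3, against 307 to 316 CPM in static libraries, so replicate 1 was below and replicates 2 and 3 were above the static range. The log2 fold change was 0.32, or 1.25-fold (SE 0.12, adjusted p = 0.0461 by edgeR), and passed in only 4 of 20 alternatives. Without replicate 1 it was 0.48 (adjusted p = 1.66e-08 by edgeR), without replicate 3 it was 0.19 (adjusted p = 0.197), and with the covariate it was −0.15 (adjusted p = 0.245). The share of reads outside genes was likewise lowest in replicate 1.

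The remaining genes did not pass. Piezo2 was at 9.40, 10.9 and 15.1 CPM in control FFSS and 8.83, 9.06 and 7.21 CPM in control static libraries (log2 fold change 0.49, SE 0.20, adjusted p = 0.066 by edgeR), without overlap. Cacna1c was at 4.16, 7.86 and 8.27 CPM under FFSS (log2 fold change 0.53, SE 0.21, adjusted p = 0.0631 by edgeR), with replicate 1 inside the static range. Trpv4 was at 41.3 CPM in replicate 1, above all static libraries (34.0 to 36.3 CPM), but at 16.5 and 20.6 CPM in replicates 2 and 3, below them. Its log2 fold change of −0.42 (SE 0.26, adjusted p = 0.245 by edgeR) thus averages libraries that moved in opposite directions, and it was −0.91 without replicate 1 (adjusted p = 2.35e-10). Without that library Piezo2 (0.63, adjusted p = 0.000563 by edgeR) and Cacna1c (0.78, adjusted p = 1.75e-05) also passed, giving 6 of 10 genes beside 55% of all genes in that fit. With the covariate Piezo2 was at 0.01 (adjusted p = 0.978 by edgeR) and Cacna1c at −0.27 (adjusted p = 0.495).

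Trpv2 was at 6.27, 7.81 and 7.08 CPM under FFSS, below all control static libraries, with a log2 fold change of −0.25 (SE 0.11, adjusted p = 0.0943 by edgeR). Trpm7, Panx1 and P2rx4 had log2 fold changes of 0.03 (SE 0.07), 0.06 (SE 0.13) and −0.03 (SE 0.07), and their libraries overlapped those of static cells. With the covariate, Panx1 was instead higher (log2 fold change 0.51, adjusted p = 0.00894 by edgeR) and was the 1 member that passed in that fit. Trpm7 was the steadiest member in these groups, at 224, 232 and 232 CPM under FFSS against 217 to 233 CPM in static cells.

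In DKO cells FFSS gave 0 of 10 calls with an adjusted p under 0.05 by edgeR, where 0.872% of all genes passed, and 2 of 10 genes had an unadjusted p under 0.05. DESeq2 also gave 0 calls among the 10 genes, and the median log2 fold change was 0.06. Panx1 was at 9.18, 8.86 and 9.34 CPM in DKO FFSS against 6.71, 7.46 and 6.39 CPM in DKO static libraries, all higher (log2 fold change 0.41, SE 0.15, adjusted p = 0.234 by edgeR). P2rx7 was at 40.2, 42.6 and 40.3 CPM against 34.2, 36.8 and 35.8 CPM, again all higher (log2 fold change 0.20, SE 0.08, adjusted p = 0.278 by edgeR). Both passed once control FFSS replicate 1 was left out of the shared spread (Panx1 adjusted p = 0.0127 and P2rx7 adjusted p = 0.0253, edgeR), in a fit where 10.5% of all genes passed. The log2 fold changes of the other 8 genes lay between −0.13 (Cacna1c) and 0.14 (Trpv2).

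The difference between the FFSS effects of the lines was tested as an interaction, the effect in DKO cells minus that in control cells. It passed for 0 of 10 genes by edgeR and by DESeq2, against 3.97% of all genes by edgeR, and 3 of 10 had an unadjusted p under 0.05. These were P2rx7 (−0.30, SE 0.11, adjusted p = 0.135 by edgeR), Trpv2 (0.40, SE 0.16, adjusted p = 0.164) and Cacna1c (−0.66, SE 0.30, adjusted p = 0.197). The rise of P2rx7, P2ry2 and Piezo1 in control cells is therefore not shown to differ from the DKO cells over these 12 libraries. Without control FFSS replicate 1 the interaction passed for 37.6% of all genes and for 5 of 10 members, Trpv4 (0.96, adjusted p = 2.84e-08 by edgeR), Piezo1 (−0.50, adjusted p = 3.3e-06), Cacna1c (−0.91, adjusted p = 0.000279), P2rx7 (−0.40, adjusted p = 0.000666) and Panx1 (0.56, adjusted p = 0.00307). With the covariate 0 of these 5 passed, and they were at −0.04, −0.02, −0.10, −0.15 and 0.07 (adjusted p by edgeR from 0.471 to 0.922).

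**Figure D4:**
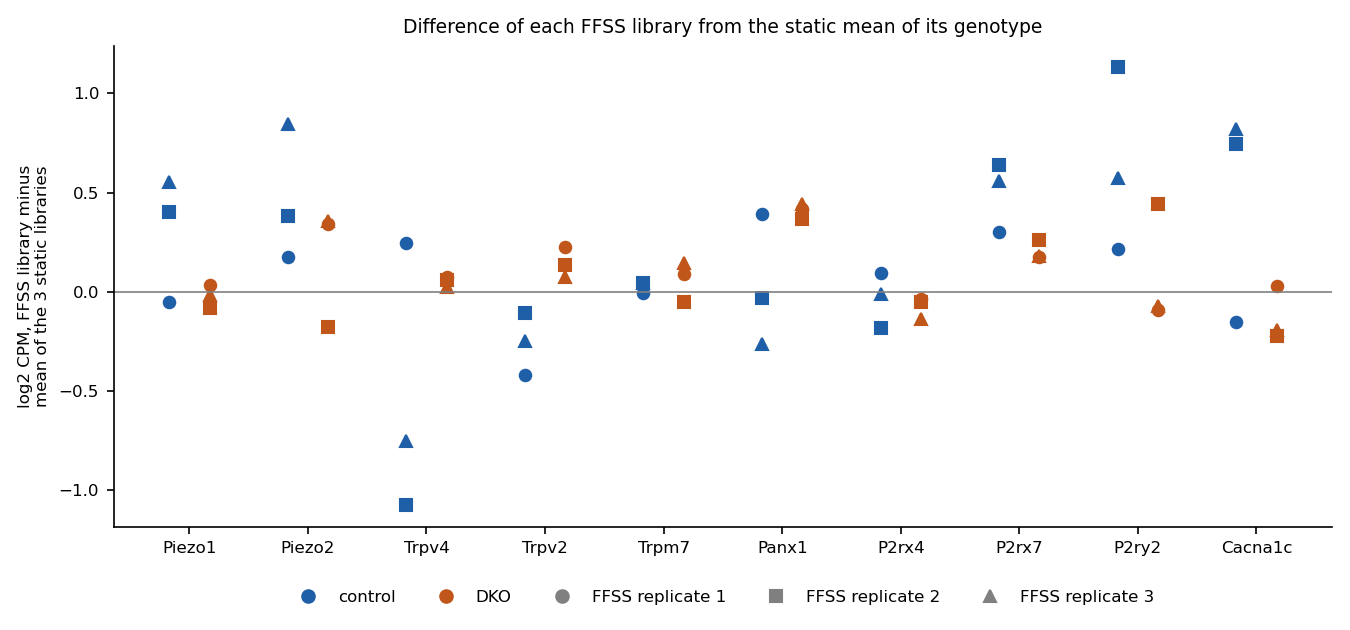
Log2 CPM of each FFSS library minus the mean of the 3 static libraries of its genotype (y axis) for the 10 genes (x axis), control in blue and DKO in orange, with 1 symbol per replicate. In control cells P2rx7, P2ry2 and Piezo2 lie above 0 in all 3 replicates. Replicate 1 of Piezo1, Trpv4, Cacna1c, Panx1, P2rx4 and Trpm7 lies on the other side of 0 from replicates 2 and 3, for Trpm7 by little. The DKO points of Trpv4 lie near 0.

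Other genes of these pathways were examined to place the members among their families. Their counts stand beside the shares over all genes, which were 27% higher and 27.2% lower between DKO and control static cells, 17.7% higher and 18.1% lower with FFSS in control cells and 0.872% in either direction with FFSS in DKO cells, 27% higher and 29.6% lower between the lines under FFSS and 3.97% in the interaction, and nothing particular to a list is read from them. Of 22 other stretch-gated and swelling-gated channels, 12 were expressed in control static cells and 15 could be tested. Tmem63a, an osmosensitive cation channel, was the most abundant per length (23.5 ± 0.762 CPM per kb in control static cells), close to the level of P2rx4 and below that of Piezo1. Between DKO and control static cells 3 of the 15 were higher and 5 lower (median log2 fold change −0.21), and under FFSS 3 were higher and 8 lower. FFSS in control cells gave 5 higher and 2 lower, and in DKO cells 0 in either direction.

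Kcnma1, the pore of the large-conductance calcium-activated potassium channel, dropped from 401, 331 and 343 counts in static control to 9, 7 and 6 in static DKO libraries (log2 fold change −5.52, SE 0.69, adjusted p = 7.89e-05 by edgeR). Like Piezo2, it was low in every DKO library. Kcnk10, a stretch-gated background potassium channel, went the other way, from 13, 20 and 16 counts in control to 77, 69 and 74 counts in DKO static libraries (log2 fold change 2.23, SE 0.18, adjusted p = 2.08e-07 by edgeR). Under FFSS Kcnk10 rose in control cells, to 45, 54 and 42 counts (log2 fold change 1.44, SE 0.19, adjusted p = 0.000152 by edgeR). In DKO FFSS libraries it had 97, 96 and 106 counts, above the static ones (0.49, adjusted p = 0.141 by edgeR, and 0.0242 without control FFSS replicate 1). Kcnma1 fell with FFSS in control cells (−1.33, adjusted p = 0.0439 by edgeR). Its value was −2.37 without control FFSS replicate 1 (adjusted p = 9e-15 by edgeR) and 0.07 with the covariate (adjusted p = 0.843). The interaction passed for 2 of the 15, Kcnk10 (−0.96, adjusted p = 0.0454 by edgeR) and Lrrc8d, a subunit of the volume-regulated anion channel (−0.80, adjusted p = 0.0444; named after its value was seen), but these calls were kept in only 4 and 6 of 19 alternatives. Without control FFSS replicate 1 they were −0.97 (adjusted p = 0.00771 by edgeR) and −0.95 (adjusted p = 5.52e-06). Lrrc8d rose from 14.2 to 26.9 CPM with FFSS in control cells and averaged 8.20 CPM in static and 8.91 CPM in sheared DKO cells.

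Of 19 other TRP channels 4 were expressed in control static cells, 8 were tested, and Trpv5, Trpc5 and Trpc7 had no count in any library. Trpm4, a calcium-activated monovalent cation channel, was the most abundant (14.0 ± 0.310 CPM per kb in control static cells). It fell with FFSS in control cells (log2 fold change −0.56, SE 0.14, adjusted p = 0.00906 by edgeR; −0.79 without control FFSS replicate 1 and −0.11 with the covariate, adjusted p = 0.581) and was lower in DKO static cells (−0.67, SE 0.14, adjusted p = 0.00141). Trpm1 fell from 36 to 51 counts in static to 7 to 27 counts in sheared control libraries (log2 fold change −1.70, SE 0.38, adjusted p = 0.00455 by edgeR; −2.56 without control FFSS replicate 1, which held the 27, and −0.41 with the covariate, adjusted p = 0.536), and at 8 to 14 counts it was also lower in DKO static cells (−2.03, SE 0.41, adjusted p = 0.000704). Between DKO and control static cells 1 TRP gene was higher and 4 were lower. Trpc6 was removed by the filter on zero counts and so not tested, but averaged 3.79 CPM in DKO static cells with 3 counts in all in the control static libraries (206 in the DKO static libraries; named after its values were seen). The counting interval of that ratio, scaled to the TMM-adjusted library totals, was 24.3 to 352.

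Among purinergic receptors outside the members, expression was low. Of 5 other P2X genes only P2rx5 (2.10 ± 0.333 CPM in control static cells) was expressed in control static cells and in both DKO groups, joined by P2rx2 in control FFSS cells. The differences of P2rx5 did not pass over all 12 libraries. Without control FFSS replicate 1 it passed with FFSS in control cells (log2 fold change 0.74, adjusted p = 0.00373 by edgeR) and between static lines (0.52, adjusted p = 0.0249). With the covariate these 2 values were −0.49 (adjusted p = 0.362 by edgeR) and −0.03 (adjusted p = 0.93), while P2rx5 passed between lines under FFSS (0.53, adjusted p = 0.0111). P2rx2 and P2rx3 rose with FFSS in control cells (log2 fold changes 1.28 and 1.25, adjusted p = 0.0146 and 0.0122 by edgeR, passing in 17 and 16 of 20 alternatives; named after their values were seen), at means of 1.49 and 1.34 CPM, and 51 exon bases of P2rx3 are shared with Ssrp1 on the opposite strand. With the covariate P2rx2 and P2rx3 were at 0.63 and 0.26 and did not pass (adjusted p = 0.456 and 0.794 by edgeR). Of 7 other P2Y genes 0 could be tested and P2ry12 had no count. P2ry1, an ADP receptor, had 33, 43 and 46 counts in control static libraries and 2, 0 and 0 counts in DKO static libraries, so that the filter removed it. The counting interval of the ratio of its summed counts, scaled to the TMM-adjusted library totals, was 15.7 to 485. In FFSS libraries P2ry1 had 111 counts in control against 0 in DKO cells. Of 4 adenosine receptors 0 were expressed in all 3 control static libraries. The most abundant, Adora2b, had 16 to 36 counts there and 7 to 16 in DKO static libraries, a lower level (log2 fold change −0.96, SE 0.37, adjusted p = 0.0406 by edgeR) that passed in 12 of 20 alternatives.

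Among 8 other genes of ATP release, Panx3 was the most abundant, at 306 ± 22.5 CPM per kb in control static cells, followed by Vdac1 at 148 CPM per kb, against 5.04 ± 0.130 for Panx1. Panx3 had 14097 counts in control FFSS replicate 1 but 3480 and 4111 counts in replicates 2 and 3, against 14306 to 16224 counts in static libraries. Its log2 fold change of −1.15 did not pass (SE 0.47, adjusted p = 0.0882 by edgeR). Without replicate 1 it was −2.12 (adjusted p = 1.68e-16 by edgeR), and with the covariate it was 0.10 (adjusted p = 0.848). In DKO static libraries it had 8923 to 9576 counts, below all control static libraries, and this log2 fold change of −0.69 (SE 0.47) did not pass either (adjusted p = 0.248 by edgeR; 6.11e-10 without control FFSS replicate 1). Slc17a9, the vesicular nucleotide transporter, was higher in DKO cells, at 16.3 ± 1.05 against 5.77 ± 1.21 CPM in static culture (2.83-fold, adjusted p = 1.53e-06 by edgeR). Of the 7 tested, 3 were higher and 1 lower in DKO static cells. FFSS in control cells gave 1 higher (Gjc1, 0.33) and 1 lower (Vdac1, −0.42, log2 fold changes, both named after their values were seen). With the covariate Vdac1 was at −0.15 and did not pass (adjusted p = 0.202 by edgeR), while Gjc1 passed at 0.32 (adjusted p = 0.0388).

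The genes listed for turnover or transport of nucleotides, adenosine and pyrophosphate, with relatives of their families, numbered 17, with 15 tested. In DKO static cells 8 were higher and 3 lower, and FFSS in control cells gave 2 higher and 4 lower. Alpl, the tissue-nonspecific alkaline phosphatase, was the most abundant (405 ± 22.0 CPM per kb in control static cells) and did not differ past the threshold between the static groups (log2 fold change 0.16, SE 0.33, adjusted p = 0.72 by edgeR). Entpd3, which hydrolyses ATP, was higher in DKO static cells (log2 fold change 2.38, SE 0.27, adjusted p = 3.79e-06 by edgeR), whereas Enpp2, known as autotaxin, was lower (−4.42, SE 0.38, adjusted p = 4.05e-06). Ada, which deaminates adenosine, went from 93 to 102 counts in the static to 134, 284 and 252 in the sheared control libraries (log2 fold change 1.13, SE 0.22, adjusted p = 0.0018 by edgeR; 1.38 without control FFSS replicate 1 and 0.34 with the covariate, adjusted p = 0.324).

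Cacna1c was a minor calcium channel pore in these cells. Of 9 other alpha1 subunits, Cacna1a, the P/Q-type pore, was the most abundant, at 2.39 ± 0.125 CPM per kb against 0.531 ± 0.078 for Cacna1c in control static cells. In DKO static cells 2 of 6 tested were higher and 3 lower. The T-type subunit Cacna1h was higher (log2 fold change 2.28, SE 0.21, adjusted p = 5.83e-07 by edgeR) and the T-type subunit Cacna1g lower (−1.13, SE 0.18, adjusted p = 9e-05), while Cacna1s, the skeletal muscle L-type pore, was higher (1.79, SE 0.31, adjusted p = 0.000246). Over all 12 libraries FFSS called 0 of the 6 in either line by edgeR. Without control FFSS replicate 1, Cacna1a (0.29, adjusted p = 0.00426 by edgeR), Cacna1g (−0.56, adjusted p = 0.00235) and Cacna1s (−1.38, adjusted p = 0.00535) passed in control cells. Cacna1a then also passed in DKO cells (−0.39, adjusted p = 0.00298 by edgeR). With the covariate Cacna1a was at −0.38 in control (adjusted p = 0.0275 by edgeR) and −0.56 in DKO cells (adjusted p = 0.000189), and Cacna1g and Cacna1s did not pass. Among 8 auxiliary subunits Cacnb3 was the most abundant, at 56.6 ± 1.17 CPM per kb. It fell with FFSS in control cells, from 3312, 3336 and 3432 counts to 2460, 1464 and 1686 (log2 fold change −0.91, SE 0.16, adjusted p = 0.00168 by edgeR; −1.19 without control FFSS replicate 1 and −0.40 with the covariate, adjusted p = 0.00993). Cacnb2 had 80 to 107 counts in control static and 2 to 6 counts in DKO static libraries (log2 fold change −4.18, SE 0.34, adjusted p = 2.03e-07 by edgeR). Of the 6 auxiliary subunits tested, 1 was higher and 3 lower in DKO static cells, and FFSS in control cells gave 0 higher and 2 lower. The interaction passed for 1, Cacnb1 (0.96, adjusted p = 0.0341 by edgeR, named after its value was seen). Cacnb1 fell with FFSS in control cells (−0.69, adjusted p = 0.00379 by edgeR), and its alternatives are not given.

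**Figure D5:**
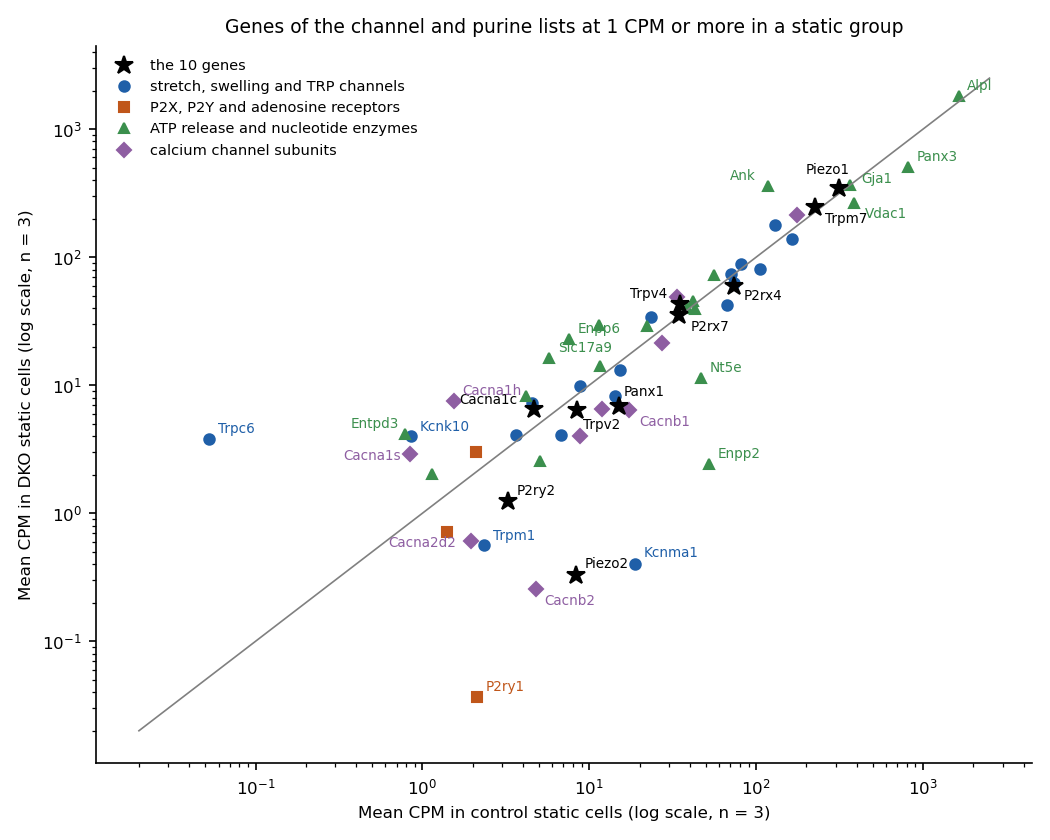
Mean CPM in control static cells (x axis, log scale) against DKO static cells (y axis, log scale), n = 3 each, for the 10 genes (stars) and for the genes of the other lists with a mean of 1 CPM or more in a static group. The grey line marks equal levels. Piezo2, Kcnma1, Cacnb2, Enpp2 and P2ry1 lie far below it and Trpc6 far above it, whereas Piezo1 and Trpm7 lie close to it.

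The genes whose levels over the 12 libraries most resembled those of Piezo1 and Piezo2 were found among 12250 genes, by the root mean square difference of mean-centred log2 CPM. For Piezo1 they were Gcn1l1 (0.0397), Mphosph9 (0.0613) and Rai1 (0.0618). Gcn1l1 averaged 120 CPM in control static, 152 in control FFSS, 137 in static DKO and 136 in sheared DKO cells, the same order of groups as Piezo1 (312, 390, 345 and 339 CPM). For Piezo2 the nearest were Flt4 (0.478), Fmo1 (0.515) and Tspan7 (0.530), which were all lower in the DKO groups. The distances for Piezo2 were larger than those for Piezo1, and its DKO counts were near the floor.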

How the data were processed

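RNA-seq libraries were prepared from total RNA of Ocy454 cells (12 libraries). Per the labels and the study's methods, the authors sequenced single-end reads on a BGISEQ platform, aligned them with STAR to mm9 and counted reads per Ensembl gene with HTSeq, without strand. The deposited values are raw counts, neither normalised nor filtered. Reads that align to several places, or lie in a stretch that genes share, were left out of these counts. The 5 HTSeq summary lines were kept out of library sizes. Of the 37583 IDs, 98.9% were in the mm9 annotation that gave symbols, coordinates and exon lengths. Promoter windows came from RefSeq (GRCm38.p6).

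Libraries were grouped by their titles and characteristics. The 4 groups were fitted together with edgeR 4.0.16 (limma 3.58.1, R 4.3.3) by robust quasi-likelihood tests with TMM factors. As in the study's own analysis, a gene was dropped where 2 or more of the 12 libraries held 0 counts, which left 14904, and p-values were adjusted over all of them by Benjamini-Hochberg. Calls were made at an adjusted p under 0.05, and with more than a 2-fold change as well. The SE of a log2 fold change is its size divided by the square root of F. Depth was 17.6 to 19.2 M reads per library, and intervals and floors cover counting error only, since reads without molecular identifiers are not independent molecules. The fit was tested on simulated counts with changed genes. Alternatives were RLE factors, library totals alone, edgeR filterByExpr, no filter, only the 6 libraries compared, DESeq2 1.42.0 (size factors and Wald test), the replicate number as a block, the share of reads outside genes as a covariate, and leaving out each library in turn. Exon bases shared with no other gene were added as a length after seeing the data.

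The 10 members and all gene lists were chosen with earlier results of these data known. From each other list the text names the most abundant gene per length in control static cells and, in each comparison, the genes with the highest and lowest log2 fold change past 2-fold with an average log2 CPM above 0. Genes outside this rule are said to be named after their values were seen. Likeness was computed for Piezo1 and for the member that differed most between static DKO and control cells.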

Additional observations from a re-analysis of the deposited data

Results flagged for a closer look

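Trpv2 was picked out because all FFSS libraries of one line moved one way and all of the other line the opposite way. Against the mean log2 CPM of the static libraries of its line, Trpv2 was at −0.42, −0.11 and −0.25 in control FFSS replicates 1, 2 and 3. In DKO FFSS replicates 1, 2 and 3 it was at 0.22, 0.14 and 0.073. The test of the difference itself, the interaction, gave 0.40 (SE 0.16) and did not pass over all genes (adjusted p = 0.164 by edgeR). Without control FFSS replicate 1, the interaction was 0.32 (adjusted p = 0.134 by edgeR). In CPM the libraries lay between 5.71 and 8.62, around static means of 8.42 in control and 6.34 in DKO cells.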

How the results depend on the processing

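Of 14 calls of a member in a comparison, 13 kept their direction in every alternative and 9 kept their side of the threshold as well. The exception in direction was Piezo1 under FFSS in control cells, at −0.15 (log2) with the share of reads outside genes as a covariate. Among genes that had not passed, that covariate also turned the sign of Trpv4 (0.40), Trpm7 (−0.024), P2rx4 (0.10) and Cacna1c (−0.27) under FFSS in control cells, Piezo2 (−0.11) and P2ry2 (−0.045) under FFSS in DKO cells, Trpv4 (−0.040) in the interaction, Piezo1 (−0.13) and P2rx7 (−0.082) between static lines, and Trpv2 (0.0030) between lines under FFSS. Library totals alone turned P2rx4 (0.089) under FFSS in control cells, Trpm7 in the interaction (−0.083) and between lines under FFSS (−0.031), and P2rx7 between static lines (−0.025). Trpv2 between lines under FFSS, at −0.01, became 0.0040 with RLE factors, 0.0042 without a filter, 0.012 with its 6 libraries and 0.0037 by DESeq2. Members past the threshold under FFSS in control cells numbered 5 with library totals alone, 1 with 6 libraries and 1 with the covariate (Panx1, not among the 3 that had passed). For FFSS in DKO cells they numbered 2 with 6 libraries and 3 with the covariate (Panx1, Trpv4 and Piezo1), where 0 had passed, and between static lines 9 with 6 libraries, where 5 had passed. With the covariate 6 passed between static lines, Trpv4 being gained at 0.85 in place of 0.30. Nothing particular to the members is read from these counts, as the shares of all genes past the adjusted p alone are not given. Genes called past 2-fold numbered 438 (6 libraries) and 198 (covariate) for FFSS in control cells in place of 884, 46 and 50 for FFSS in DKO cells in place of 13, and 175 by DESeq2 for the interaction in place of 97. The cause of these shifts was not tested. The interaction could not be fitted on 6 libraries.

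In what follows genes are counted past an adjusted p and 2-fold, and members past the adjusted p alone. Leaving out 1 library gave 494 to 1696 genes and 1 to 6 members for FFSS in control cells, 8 to 39 genes and 0 to 2 members for FFSS in DKO cells, 42 to 1138 genes and 0 to 5 members for the interaction, 5 to 9 members between static lines, and 4 to 9 between lines under FFSS. The highest value of each came without control FFSS replicate 1. In that fit 55% of all genes passed the adjusted p alone for FFSS in control cells and 10.5% for FFSS in DKO cells. The share was 37.6% for the interaction and 63.8% between static lines. It is not given for lines under FFSS, so nothing particular to the members is read from that count. Log2 fold changes then ranged from −0.15 to 0.20 for Panx1 and −0.098 to 0.038 for P2rx4 (FFSS in control cells), −0.062 to 0.030 for Piezo1, −0.37 to 0.80 for Piezo2 and −0.097 to 0.22 for P2ry2 (FFSS in DKO cells), −0.86 to 0.31 for Piezo2, −0.011 to 0.12 for Trpm7 and −0.12 to 0.020 for P2rx4 (interaction), and −0.088 to 0.069 for Trpv2 (lines under FFSS).

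The titles number the replicates alike in all groups, but same-numbered libraries did not deviate together (mean correlation 0.00226, from −0.0603 to 0.0631). For libraries of different number the mean was −0.00116, from −0.088 to 0.093. With deviations from means of only 3 libraries, this cannot decide whether same-numbered libraries were handled together. A fit that included the replicate block called 882 genes (adjusted p and 2-fold) and 2 members (adjusted p alone) under FFSS in control cells, Piezo1 being lost at an adjusted p of 0.0536 by edgeR, and no other member's call changed. At this depth Piezo2 in DKO cells is at or near the floor, so a further fall there was not detectable.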
